A study of Mus musculus with 4 samples.

Results

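The ubiquitin conjugating enzyme, RING finger and ubiquitin-specific protease genes of the mouse were examined for S9.6 CUT&Tag intervals in P19 cells. They were all protein-coding genes whose symbol begins with Ube2, Ube3, Rnf or Usp followed by a letter or digit, 182 of the 21887 protein-coding genes that RefSeq places on chromosomes 1 to 19, X and Y of GRCm38.p6, the assembly also named mm10. There were 37 Ube2, 3 Ube3, 85 Rnf and 57 Usp genes. A gene was taken to hold an interval when any distinct called interval lay over it or within 1000 bp of either end.

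P19 is a line of mouse embryonal carcinoma cells. The series holds 4 libraries, 1 for each condition. Cells labelled wild-type with a control adenovirus (shCtrl), and cells labelled Ube2t knockdown with either of 2 adenoviruses (shUbe2t #1 and shUbe2t #2), were profiled with S9.6, an antibody that binds RNA:DNA hybrids. The fourth library came from shCtrl cells with no primary antibody. All cells, controls included, had therefore received an adenovirus, and the time after infection is not given in the sources used here. The lists are of genomic DNA, so neither the knockdown nor the markers of P19 cells could be read from them, and no library treated with RNase H to remove hybrids was analysed here. Since each condition has 1 library, conditions could not be tested against each other, and each difference below is one between libraries. Peak names in the no-antibody list begin with IgG, and the label was followed.

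Ubiquitin is passed from an activating enzyme to a conjugating enzyme (E2, most Ube2 genes) and, with the help of a ligase (E3), to its substrate. RING ligases, which include most Rnf proteins, bring the loaded E2 to the substrate, whereas HECT ligases such as UBE3A take the ubiquitin over themselves before handing it on. Ubiquitin-specific proteases (Usp) remove it again. UBE2T, the target of both hairpins, is the E2 with which the Fanconi core complex attaches ubiquitin to FANCD2 and FANCI, a step reversed by USP1.

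Each list was called on its own library. The shCtrl list held 1263 distinct intervals, the lists of hairpins #1 and #2 held 1519 and 1640, and the no-antibody list held 516. Depth, read from the lowest local background recovered in each list, was 92.2%, 93.6% and 58.7% of shCtrl in the 3 other libraries in that order. The weakest called summits stood on 8 fragments in each S9.6 list and 7 without antibody. Intervals given below are 95% intervals and cover counting error only.

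More members held an interval in either knockdown list than in the control list. In shCtrl 7 of 182 did (3.85%, exact binomial interval 1.56 to 7.76), against 21 with hairpin #1 (11.5%, 7.29 to 17.1) and 18 with hairpin #2 (9.89%, 5.97 to 15.2). The no-antibody list held 1 (0.549%, 0.0139 to 3.02). Over all protein-coding genes the shares were 3.07%, 4.95%, 5.42% and 0.731% in the same order. Members are longer than protein-coding genes as a whole, with a median length of 31013.5 bp against 17169 bp, and longer genes have more room for an interval. Among protein-coding genes weighted to the members' lengths (20 length bins) the shares were 3.54%, 5.79%, 6.41% and 0.897%. The shCtrl and no-antibody counts thus stood near the length-weighted share. The shares of members in shUbe2t #1 (11.5%) and shUbe2t #2 (9.89%) were above it. Each share comes from 1 library and from members chosen with earlier results known. The counting intervals therefore do not test these differences. From shCtrl to shUbe2t #1 the ratio of members with an interval was 3.0 and that of all protein-coding genes 1.62. For shUbe2t #2 these ratios were 2.57 and 1.77, over the same shCtrl library. With the strongest 1263 intervals of each list, 7, 16 and 14 members held one (3.85%, 8.79% and 7.69%), against 3.07%, 3.98% and 4.10% of protein-coding genes.

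**Figure D1:**
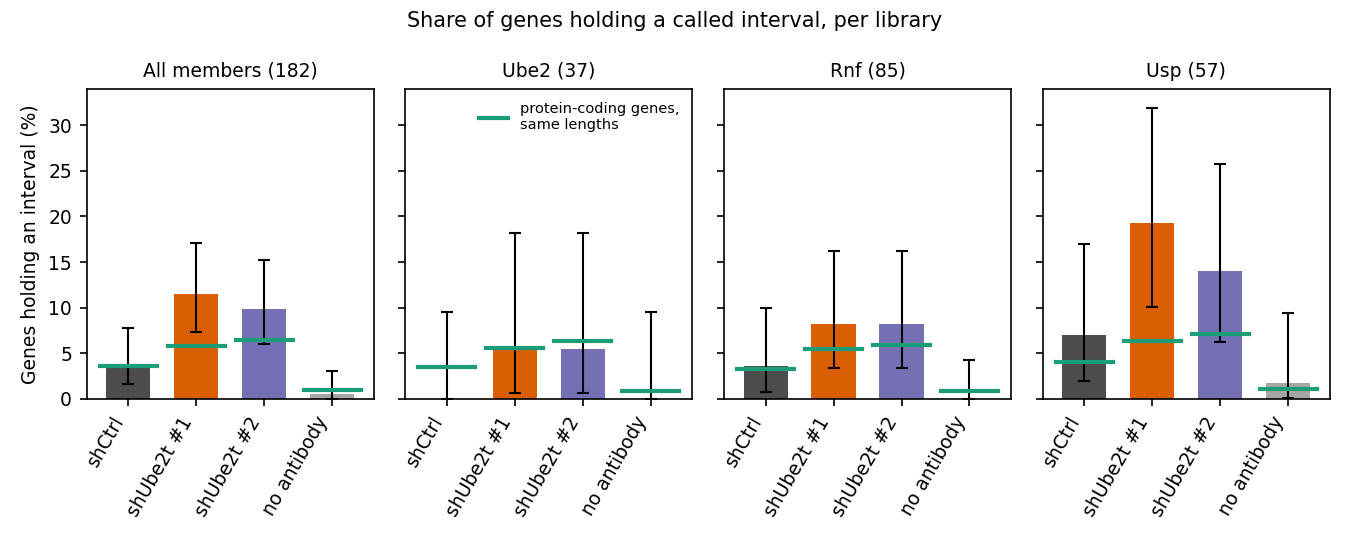
Bars give the share of genes holding a called interval (y axis, %) in each library (x axis) for all members and for the Ube2, Rnf and Usp genes, with gene numbers in parentheses. Error bars are exact 95% binomial intervals, and green lines give protein-coding genes of the same lengths. The Usp bar of shUbe2t #1 is the tallest, at 19.3%, and the Ube2 bars of both hairpins lie near the line.

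The Usp genes, grouped by symbol, had the highest share of the larger families. Of 57 Usp genes, 4 held an interval in shCtrl (7.02%, 1.95 to 17.0), 11 with hairpin #1 (19.3%, 10.05 to 31.9) and 8 with hairpin #2 (14.0%, 6.26 to 25.8), and Usp34 alone did without antibody. In genes of their lengths the shares were 4.02%, 6.38%, 7.14% and 1.11%. Of 85 Rnf genes the numbers were 3, 7, 7 and 0, or 3.53%, 8.24%, 8.24% and 0% (which allows up to 4.25%), against 3.21%, 5.42%, 5.91% and 0.791%. Of 37 Ube2 genes none held an interval in shCtrl, 2 did with each hairpin and none without antibody, against 3.49%, 5.61%, 6.29% and 0.790%. A count of 0 among 37 genes allows a share of up to 9.49%, so the families were not shown to differ from each other. Among the 3 Ube3 genes only Ube3a held one, in both knockdown lists.

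In all, 27 members (14.8%, 10.01 to 20.8) held an interval in at least 1 S9.6 list, against 8.91% of protein-coding genes and 10.4% after weighting for length. Both hairpin lists held 13 members (7.14%, 3.86 to 11.9), against 2.49% of protein-coding genes and 2.91% after weighting. These counts are by gene, and Rnf31 and Usp34 were in both lists through intervals that did not overlap. The same 13 were the members in 2 or more S9.6 lists, where the share of protein-coding genes was 3.19%. The 13 made up 61.9% of the members in shUbe2t #1 and 72.2% of those in shUbe2t #2. Over all protein-coding genes the 546 genes in both lists were 50.4% and 46.0%. Of the 13, 6 were also in the shCtrl list and 7 were not, the latter being 3.85% of members against 1.16% of protein-coding genes (1.34% after weighting for length). In either hairpin list and not in shCtrl were 20 members (11.0%, against 5.84%, or 6.90% after weighting for length). In the other direction, 1 member was in the shCtrl list and in neither hairpin list (0.549%, against 1.03%). The remaining 155 members, Ube2t among them, held no S9.6 interval. Ube2t (gene 67196, chromosome 1, 134962565 to 134974180) lay 226 kb from the nearest interval in each S9.6 list.

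**Figure D2:**
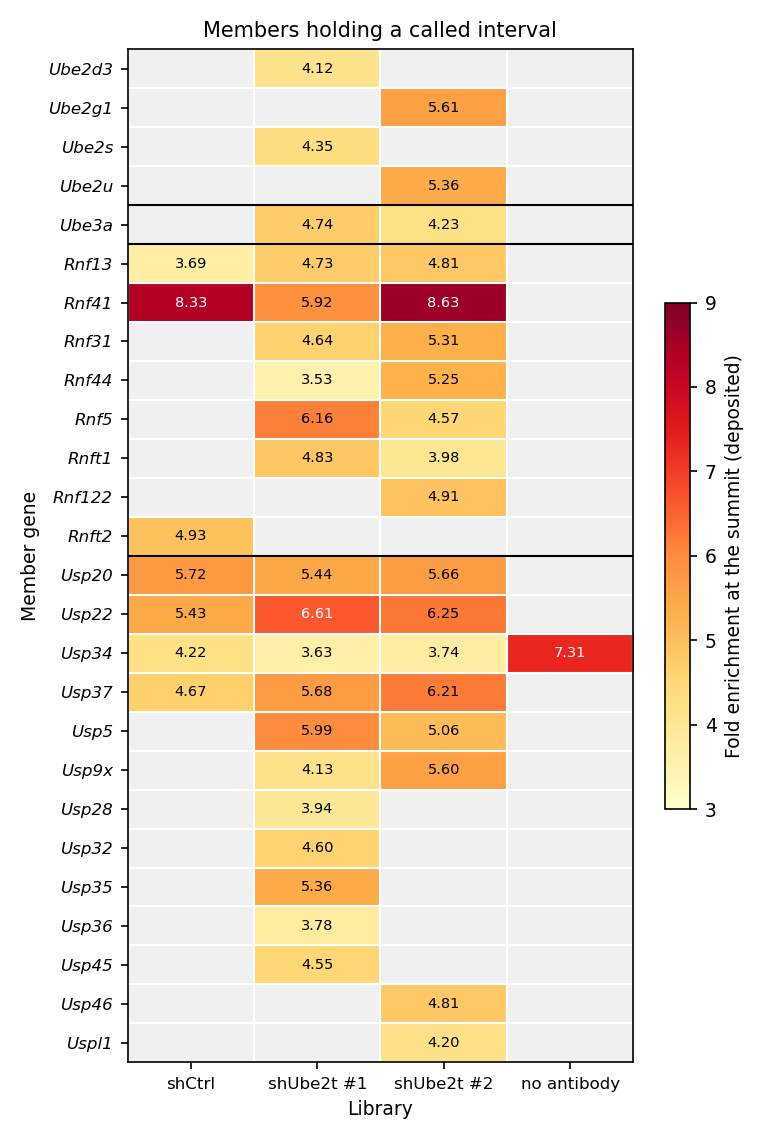
Each row is a named member that held an interval, ordered by family (Ube2, Ube3, Rnf, Usp), and each column a library. Colour and number give the deposited fold enrichment at the summit of the member's strongest interval, and grey means that none was called. Most filled cells lie in the middle columns of the 2 hairpins, and Usp34 is the only row filled without antibody.

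Merging overlapping S9.6 intervals across libraries gave 30 regions at members. Of these, 29 were free of no-antibody intervals, and the remaining 1 was in the body of Usp34. At other protein-coding genes 137 of 1815 regions (7.55%) overlapped a no-antibody interval. Regions called in all 3 S9.6 libraries lay at 5 members (2.75%, against 1.27% of protein-coding genes), namely Rnf13, Rnf41, Usp20, Usp22 and Usp37. Regions called with both hairpins and not in shCtrl lay at 6 (3.30%, against 1.12%), namely Ube3a, Rnf5, Rnf44, Rnft1, Usp5 and Usp9x. Only Rnft2 had a region called in shCtrl alone (0.549%, against 1.23%). Regions of shUbe2t #1 alone lay at 10 members (5.49%, against 2.42%) and of shUbe2t #2 alone at 6 (3.30%, against 2.78%). A region of shCtrl and shUbe2t #2 lay at 1, Usp34 (0.549%, against 0.42%), and none was shared by shCtrl and shUbe2t #1 only (0.292% of protein-coding genes). All 6 members in each S9.6 list by gene (3.30%, against 1.34%) were these 5 and Usp34, whose sites differed between lists.

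Promoter sequences were listed for 143 of the 182 members. Of the 11 members with a region of all 3 S9.6 libraries or of both hairpins, 6 have a listed start whose promoter that region reached. Their 250 bases before the start are shown, 5′ to 3′ on the strand of the gene, because these are the stretches where S9.6 signal was called repeatedly at members. Capitals mark the bases inside the interval of every library that called the region. The sequences are from RefSeq, GRCm38.p6. They lie at chr3:57735807-57736056 (+ strand), chr10:128411366-128411615 (+), chr2:30982029-30982278 (+), chr1:74505822-74506071 (- strand), chr13:54693961-54694210 (-) and chr7:59228500-59228749 (+). The first 4 were called in all 3 S9.6 libraries and the last 2 with both hairpins only.
Rnf13: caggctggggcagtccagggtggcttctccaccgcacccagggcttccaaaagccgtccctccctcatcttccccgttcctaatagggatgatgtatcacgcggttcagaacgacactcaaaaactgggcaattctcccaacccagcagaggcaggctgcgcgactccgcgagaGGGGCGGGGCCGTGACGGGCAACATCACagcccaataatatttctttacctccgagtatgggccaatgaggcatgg
Rnf41: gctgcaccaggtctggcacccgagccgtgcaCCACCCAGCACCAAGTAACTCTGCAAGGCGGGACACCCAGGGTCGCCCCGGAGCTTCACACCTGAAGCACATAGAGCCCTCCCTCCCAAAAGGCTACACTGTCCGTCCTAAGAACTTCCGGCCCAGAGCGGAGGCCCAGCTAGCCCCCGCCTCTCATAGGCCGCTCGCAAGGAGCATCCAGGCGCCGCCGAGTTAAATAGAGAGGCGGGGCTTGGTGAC
Usp20: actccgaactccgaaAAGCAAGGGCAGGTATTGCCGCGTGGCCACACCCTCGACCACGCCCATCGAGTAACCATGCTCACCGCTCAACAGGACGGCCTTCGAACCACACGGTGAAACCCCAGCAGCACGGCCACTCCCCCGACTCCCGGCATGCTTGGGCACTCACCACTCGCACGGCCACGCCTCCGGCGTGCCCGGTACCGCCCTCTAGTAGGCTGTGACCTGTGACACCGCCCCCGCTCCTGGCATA
Usp37: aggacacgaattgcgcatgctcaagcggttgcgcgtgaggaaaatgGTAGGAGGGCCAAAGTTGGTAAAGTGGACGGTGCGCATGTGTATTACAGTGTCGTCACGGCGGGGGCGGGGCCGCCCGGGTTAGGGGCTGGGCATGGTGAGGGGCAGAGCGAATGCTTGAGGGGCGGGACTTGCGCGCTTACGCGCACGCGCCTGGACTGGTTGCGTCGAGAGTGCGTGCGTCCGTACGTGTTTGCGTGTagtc
Rnf44: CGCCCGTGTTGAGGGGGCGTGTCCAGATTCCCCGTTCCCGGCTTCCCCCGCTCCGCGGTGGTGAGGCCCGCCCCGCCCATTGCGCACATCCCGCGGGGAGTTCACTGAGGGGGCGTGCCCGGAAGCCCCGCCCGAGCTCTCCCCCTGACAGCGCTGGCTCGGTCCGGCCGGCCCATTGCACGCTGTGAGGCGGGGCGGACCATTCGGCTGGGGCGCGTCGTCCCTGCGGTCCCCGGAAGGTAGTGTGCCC
Ube3a: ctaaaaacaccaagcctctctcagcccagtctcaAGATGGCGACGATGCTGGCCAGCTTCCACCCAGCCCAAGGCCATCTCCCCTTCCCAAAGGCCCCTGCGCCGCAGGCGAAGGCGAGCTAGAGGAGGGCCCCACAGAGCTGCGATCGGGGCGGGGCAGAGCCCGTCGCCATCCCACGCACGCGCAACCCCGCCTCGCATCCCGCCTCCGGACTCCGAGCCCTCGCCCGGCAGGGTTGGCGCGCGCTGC

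The 6 stretches held from 58.8% (Rnf13) to 74.4% (Rnf44) G and C, against a median of 55.2% over the first listed promoter of 17492 protein-coding genes. Over the 143 members with a listed start the median was 60.8%, which is above the value of Rnf13. The stretches held 14 (Rnf13), 15 (Rnf41), 23 (Usp20), 28 (Usp37), 30 (Rnf44) and 24 (Ube3a) CpG dinucleotides. The median was 10 over the promoters of protein-coding genes and 18 over those of members, and Rnf13 and Rnf41 lay below the latter. The GC box letters GGGCGG, searched on both strands, were found in 5 of the 6 and not at Rnf41. Strand asymmetry differed between them. The G over C skew, (G − C)/(G + C) on the strand of the gene, was 0.34 at Usp37 and -0.27 at Usp20, so the sign was not shared. The runs GGGG or CCCC occurred in each of the 6, which 84.4% of all listed promoters also hold.

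Over the 18 members with an S9.6 interval within 1000 bp of a listed start, the median promoter had 67.6% G and C and 25.5 CpG dinucleotides. The 125 members with a listed start and no such interval had medians of 59.2% and 17. GGGCGG on either strand was present in 16 of the 18 (88.9%) and in 68 of the 125 (54.4%). Protein-coding genes as a whole showed the same order, with 71.6% of 1228 genes with an S9.6 interval at a start and 40.5% of 16264 without. A GGGCGG match can overlap a GGGG run, so these letter counts are not separate.

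Because member promoters held more CpG than others, counts at starts were also weighted for it, a step added after the data were seen. Within 1000 bp of a listed start, an interval was found for 5 of 143 members in shCtrl (3.50%, 1.14 to 7.97), 15 with hairpin #1 (10.5%, 5.99 to 16.7) and 9 with hairpin #2 (6.29%, 2.92 to 11.6). Without antibody the count was 0, which allows up to 2.55%. Over 17492 protein-coding genes the shares were 1.93%, 3.84%, 4.38% and 0.137%. Among genes with the members' CpG counts and lengths they were 2.74%, 5.60%, 6.30% and 0.161%. The shUbe2t #2 share of members was then almost equal to the weighted share. That of shUbe2t #1 was above it (10.5% against 5.60%), and this difference was not tested. This comparison leaves out members whose starts are not in the promoter table, among them Rnf5, Rnf122, Rnft1, Usp5, Usp9x, Usp22 and Uspl1.

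Summits lay close to the start and mostly on its upstream side. Counting each member interval within 1000 bp of a listed start, 25 of 29 summits were upstream, with a median position 109 bp before the start, and 24 of 29 were within 250 bp of it. For other protein-coding genes 74.7% of 1794 summits were upstream, with a median 101.5 bp before the start, and 70.2% lay within 250 bp. The position of member summits was therefore close to that of other genes.

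**Figure D3:**
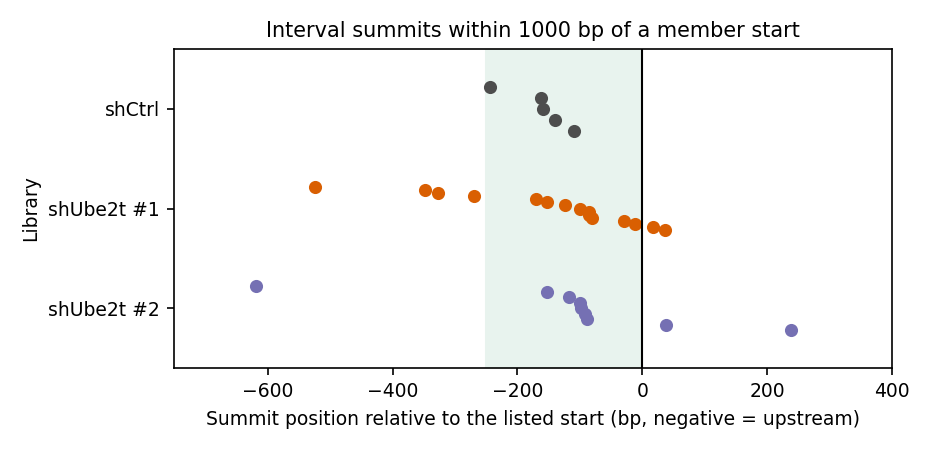
Points are summits of member intervals within 1000 bp of a listed start, placed by distance from that start in bp (x axis, negative upstream) for each S9.6 library (rows, spread vertically for clarity). The shaded band is the 250 bp before the start. It holds all 5 shCtrl points and most of the 15 and 9 points of the hairpins.

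Ligases and proteases called in every S9.6 library come first. Fold is the deposited enrichment of the summit over its local background, and pileup is the number of fragments over the summit recovered from fold and p, with its Poisson interval. To set libraries side by side, pileups were scaled to depth, taken as the lowest background found in each list.

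Rnf13 encodes a membrane-bound RING ligase of endosomes and lysosomes. Its start (chromosome 3, 57736057, + strand) had a fold of 3.69 in shCtrl, and of 4.73 and 4.81 with hairpins #1 and #2. The pileups were 10 (4.80 to 18.4), 13 (6.92 to 22.2) and 14 (7.65 to 23.5), which gives depth-scaled ratios to shCtrl of 1.41 (0.571 to 3.59) and 1.5 (0.618 to 3.77). The shCtrl call was the weakest of the 3 and stood at the 12.9th percentile of fold in its list. The intervals shared only 28 bp, since the shUbe2t #2 summit was 238 bp downstream of the start and the other 2 were upstream.

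Rnf41 encodes a RING ligase also known as NRDP1, which acts on the receptor ERBB3. It was the only member with 2 regions called in all 3 S9.6 libraries. The region at its start (chromosome 10, 128411386 to 128411766) had folds of 5.08, 5.80 and 4.42 in shCtrl, shUbe2t #1 and shUbe2t #2, with pileups of 17, 23 and 15, and the start of Nabp2 on the opposite strand was 835 bp away. The other (128441775 to 128442065) lay 334 to 403 bp past the 3′ end of the gene, with no other protein-coding gene within 1000 bp, and had folds of 8.33, 5.92 and 8.63 with pileups of 26, 17 and 23. This second site was the strongest S9.6 site of any member by fold, and it was lowest in shUbe2t #1, where the site at the start was highest. The depth-scaled ratios of shUbe2t #1 to shCtrl were 1.47 (0.750 to 2.93) at the start and 0.709 (0.361 to 1.36) past the end, and both intervals include 1.

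Usp20 encodes a protease known to bind the VHL protein of a cullin ligase. Its start (chromosome 2, 30982279, + strand) had the most even depth-scaled signal of these regions. Folds were 5.72 in shCtrl and 5.44 and 5.66 with hairpins #1 and #2, on pileups of 18, 15 and 17. The depth-scaled ratios to shCtrl were 0.904 (0.424 to 1.90) and 1.01 (0.489 to 2.08). The region also covered the start of BC005624 on the opposite strand, so its signal cannot be given to either gene.

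Usp22 encodes the protease of the SAGA coactivator, which takes ubiquitin off histones. The end of the gene with the higher coordinate (chromosome 11, region 61174965 to 61175535) had folds of 5.43, 6.61 and 6.25 with pileups of 19 (11.4 to 29.7), 24 (15.4 to 35.7) and 26 (17.0 to 38.1) in shCtrl, shUbe2t #1 and shUbe2t #2. The ratios to shCtrl were 1.37 (0.719 to 2.64) and 1.46 (0.779 to 2.80).

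Usp37 encodes a protease linked to cyclin A and the entry into S phase. Its region (chromosome 1, 74505669 to 74506077) is inside the annotated gene, at an internal listed start on the - strand and at the start of Cnot9 on the + strand. Folds were 4.67, 5.68 and 6.21 with pileups of 13, 20 and 18, and the ratios to shCtrl were 1.67 (0.790 to 3.65) and 1.48 (0.686 to 3.29). Rnf13, Usp22 and Usp37 thus had a higher depth-scaled pileup in both knockdown libraries than in shCtrl, the site past the end of Rnf41 a lower one in both, and the other 2 regions a higher value in 1 and a lower value in the other. The interval of each of the 12 ratios includes 1.

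**Figure D4:**
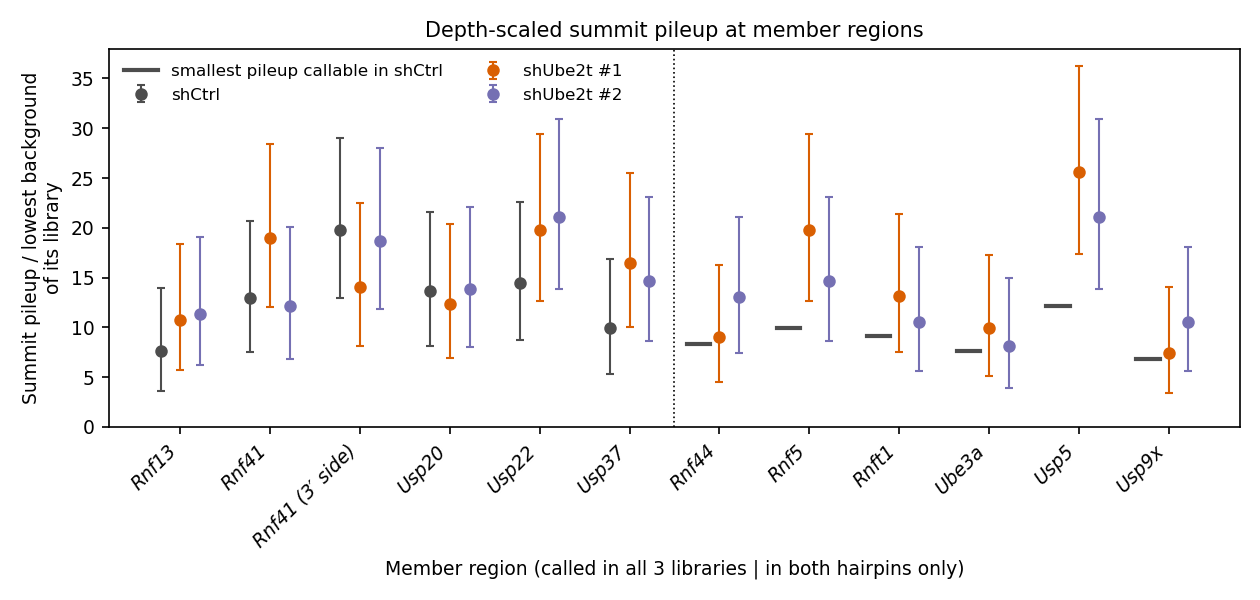
Points give the depth-scaled summit pileup of each S9.6 library, that is the pileup over the lowest background in that list (y axis), at the 12 member regions called in all 3 S9.6 libraries (left of the dotted line) or in both hairpin libraries only (right), with 95% Poisson error bars. Dark horizontal bars on the right mark the weakest pileup that could pass in shCtrl at such a background. Error bars of the 3 libraries overlap at every region on the left, and Usp5 stands farthest above its bar on the right.

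The members called with both hairpins and not in shCtrl follow. For each, the pileup expected in shCtrl at its depth was set beside the smallest pileup that list would have called. A missing call is not a measured zero.

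Ube3a encodes the HECT ligase lost in Angelman syndrome and is imprinted in neurons. Its start (chromosome 7, 59228750, + strand) had folds of 4.74 in shUbe2t #1 and 4.23 in shUbe2t #2 on 12 (6.2 to 21.0) and 10 (4.80 to 18.4) fragments. These correspond to 1.30 and 1.19 times the smallest call in shCtrl, a margin well within counting error. The other Ube3 genes, Ube3b and Ube3c, held no interval.

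Rnf44 encodes a RING finger protein. Its start (chromosome 13, 54693960, - strand) had a fold of 3.53 on 11 fragments in shUbe2t #1 and 5.25 on 16 in shUbe2t #2. These were 1.08 and 1.55 times the smallest call in shCtrl. The pileup interval in shUbe2t #1 was 5.49 to 19.7, so the margin there was well within counting error.

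Rnf5 encodes a RING ligase of the endoplasmic reticulum membrane. Its region (chromosome 17, 34604104 to 34604422) lay outside the gene, 651 bp away in shUbe2t #1 and 543 bp in shUbe2t #2, with Agpat1 also within 1000 bp. Folds were 6.16 on 24 fragments and 4.57 on 18, or 2.00 and 1.48 times the smallest call in shCtrl. No called member lay farther from its interval than Rnf5 in shUbe2t #1, and the nearest member beyond the 1000 bp limit was Ube2q2, 1392 bp away in shCtrl.

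Rnft1 encodes a RING protein with membrane-spanning segments. The end of the gene with the lower coordinate (chromosome 11, 86484368 to 86484750) had folds of 4.83 and 3.98 on 16 and 13 fragments in shUbe2t #1 and #2, or 1.45 and 1.16 times the smallest call. Its paralogue Rnft2 was the single member called in shCtrl alone, with a fold of 4.93 on 14 fragments at a region 12 bp from its listed start that also covered the start of Spring1 on the opposite strand. Scaled to hairpins #1 and #2, that summit was 1.29 and 1.31 times the smallest call there. The margins of the opposite calls at these paralogues thus overlapped.

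Usp5 encodes the protease that recycles free ubiquitin chains. It had the highest pileup of all members, 31 fragments (21.1 to 44.0) in shUbe2t #1 and 26 (17.0 to 38.1) in shUbe2t #2, with folds of 5.99 and 5.06 (chromosome 6, 124829348 to 124829689). These were 2.1 and 1.74 times the smallest call in shCtrl, the widest margin of the 6 regions for each hairpin. The region also lay 487 bp from the start of Cdca3, a cell cycle gene.

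Usp9x encodes an X-linked protease with many substrates, among them beta-catenin. Its region (chromosome X, 13071177 to 13071393) lay inside the gene, with summits 290 and 297 bp from the end with the lower coordinate. Folds were 4.13 on 9 fragments and 5.60 on 13 in shUbe2t #1 and #2, or 1.08 and 1.54 times the smallest call in shCtrl. The pileup interval in shUbe2t #1 was 4.12 to 17.1, so the margin there was well within counting error. The Y-linked Usp9y held none.

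Rnf31 and Usp34 were in several lists, with hairpin intervals that did not overlap each other. Rnf31 encodes the catalytic subunit of the linear ubiquitin chain ligase LUBAC. It had a call over its start in shUbe2t #1 (chromosome 14, 55591539 to 55591755, fold 4.64, 13 fragments). Another in shUbe2t #2 (55591008 to 55591468, fold 5.31, 16 fragments) covered the start of its divergent neighbour Psme2, a proteasome activator subunit. The shUbe2t #2 interval ended 274 bp before the Rnf31 start. With intervals merged across 500 bp, the Rnf31 calls formed a region of both hairpins only. Members at such regions then numbered 7 in place of 6. Usp34, a very large protease that acts on axin, had a site in its body (chromosome 11, 23451308 to 23451779) in shCtrl (fold 4.22, 12 fragments) and shUbe2t #2 (3.74, 10 fragments). The same site was called without antibody with a fold of 7.31 on 18 fragments, so it was called with no S9.6 added. Without S9.6 intervals that overlap a no-antibody interval, 6 members were left in shCtrl, 21 in the list of hairpin #1 and 17 in that of hairpin #2. In shUbe2t #1 Usp34 had another site (23306275 to 23306476), with a fold of 3.63. It lay inside the annotated gene, and its edge was 419 bp before an internal listed start.

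A further 13 members had a call in 1 hairpin library and nowhere else, on 9 to 20 fragments. They included all 4 Ube2 genes with an interval. Ube2d3, an E2 that works with many RING ligases, had a fold of 4.12 over its start in shUbe2t #1, and Ube2s, which extends chains for the anaphase-promoting complex, a fold of 4.35 at 312 bp from its start in the same list. Ube2g1, an E2 that works with cullin ligases, had 5.61 in shUbe2t #2 at 1091 bp inside the gene, and Ube2u had 5.36 at its start. Of these, Ube2g1 was the strongest, with 20 fragments and 1.78 times the smallest call in shCtrl.

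The single-hairpin proteases in shUbe2t #1 were Usp28, Usp32, Usp35, Usp36 and Usp45. Usp35 had the highest fold (5.36, 17 fragments) at a start facing that of Kctd21, and Usp28, a stabiliser of MYC, the lowest pileup (3.94, 9 fragments) near a start facing that of the predicted gene Gm51673. Usp36, a nucleolar protease, had a fold of 3.78, Usp32 of 4.60, and Usp45, which acts on the repair nuclease ERCC1, of 4.55. In shUbe2t #2 they were Usp46 (4.81) and Uspl1 (4.20), the latter a SUMO protease despite its name. Among ligases Rnf122 was called in shUbe2t #2 alone (4.91, 15 fragments).

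By strength, member intervals were ordinary for their lists. The median fold of member intervals was 5.01 in shCtrl and 4.68 and 5.06 with hairpins #1 and #2, against 4.73, 4.76 and 4.84 for intervals at other protein-coding genes. Their median percentile of fold within the list was 54.4, 44.5 and 55.0. At a deposited −log10 q of at least 5, 3 members were left in shCtrl, 7 in shUbe2t #1 and 8 in shUbe2t #2 (1.65%, 3.85% and 4.40%, against 1.11%, 1.91% and 2.15% of protein-coding genes). Of the 6 members at regions of both hairpins only, Usp5 alone kept a call in both lists at that threshold.

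Starts that face another gene's start on the opposite strand within 1000 bp were common among called members and called genes alike. They were 7 of the 18 members with an S9.6 interval at a listed start (38.9%, 17.3 to 64.3), namely Rnf31, Rnft2, Ube2d3, Usp20, Usp28, Usp35 and Usp37. Of the 125 members with a listed start and no such interval, 27 were of this kind (21.6%, 14.7 to 29.8). The share was 34.4% of 1228 protein-coding genes with an S9.6 interval at a start and 16.2% of all 17492.

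The other lists of ubiquitin pathway genes given here had mixed counts, and HECT ligases outside the Ube3 names are not among them. Of 47 other ligases outside the Rnf names, most of the RING or RBR type, 2 held an interval in shCtrl (4.26%). With hairpins #1 and #2, 8 (17.0%) and 5 (10.6%) of them did, and 1 did without antibody (2.13%). In genes of their lengths the shares were 3.92%, 6.40%, 6.96% and 0.97%. Of 35 deubiquitinases outside the Usp names, 0, 1, 2 and 0 did (0%, 2.86%, 5.71% and 0%), against 3.23%, 5.69%, 6.29% and 0.734% in genes of their lengths. Of 9 cullin scaffolds, 35 proteasome subunits, 4 ubiquitin-activating enzymes and 6 activating enzymes of ubiquitin-like proteins, none held an interval in shCtrl, in shUbe2t #1 or without antibody, and 1 of each list did in shUbe2t #2. These were Cul4a, Psmd12, Uba6 and Atg7, named after their values were seen. Genes of the same lengths as the cullins gave shares of 3.37%, 6.10%, 6.80% and 0.812% in the 4 lists, and those of the proteasome genes 2.30%, 4.40%, 4.69% and 0.347%. For the ubiquitin-activating enzymes these shares were 3.33%, 5.57%, 6.83% and 0.662%, and for those of ubiquitin-like proteins 4.58%, 6.43%, 7.57% and 1.20%. Each of these shares corresponds to fewer than 2 genes of its list. None of the 4 ubiquitin genes held any. Bard1, the partner of BRCA1, had a region of both hairpins with folds of 4.80 on 11 fragments and 5.56 on 14, and Pja2, a RING ligase, one with 4.61 on 13 and 6.04 on 17. Zfp91 had one of shCtrl and shUbe2t #1 (5.62 on 12 fragments and 3.55 on 9), also near Gm44505 and Lpxn. By gene Zfp91 was in the shUbe2t #2 list too, through a separate region called in that library alone.

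In a chosen list of members known to act at damaged DNA or on the ubiquitin of histones and PCNA, shares were near those of genes of their lengths. Of 28, which include Ube2t, Usp1, Usp7, Rnf8, Rnf168 and the Rnf20 and Rnf40 pair, 1 held an interval in shCtrl (3.57%), 2 in shUbe2t #1 (7.14%), 1 in shUbe2t #2 (3.57%) and none without antibody. They were Usp22, in each S9.6 list, and Usp28. The list does not hold every such member. Usp45, called in shUbe2t #1 and described above as acting on ERCC1, is not in it. With counts this small, the choice of names moves the shares. In genes of their lengths the shares were 3.57%, 5.96% and 6.72%.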

How the data were processed

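The 4 libraries, 3 with S9.6 and 1 without primary antibody, were grouped by their titles. Per the labels' protocols a commercial transposase kit and 11 PCR cycles were used. MACS2 2.1.2 and mm10 are named in the submitters' processing notes, along with Trimmomatic and a Bowtie given there as 0.7.12. Filters, duplicate handling, the q threshold and any control library are not given there. The deposited peak lists, 1 per library, give a fold ratio and a p-value and q-value on a −log10 scale per summit, all of them the authors' values.

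Summits of 1 interval were reduced to the best by p. A region is a run of S9.6 intervals that overlap by at least 1 bp. Pileup and background were solved from fold, taken as the ratio after adding 1 to each, and p, taken as a Poisson tail. p was matched within 0.01 on the −log10 scale for at least 97.1% of intervals in each list and for every member interval. If PCR duplicates were kept, they would raise pileups, and the counting intervals leave this out. Depth is the lowest background relative to shCtrl, and fragment numbers per library are unknown.

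Members and gene lists were chosen with earlier results of these data known. Of the 36 names of deubiquitinases outside the Usp genes, 35 matched a gene, and all names of the other lists given did. Shares were weighted by length in 20 bins, or by 5 bins of length and 5 of CpG count, over protein-coding genes. Members holding an interval are named, except for results that are not reported here, and values are given where at least 2 S9.6 lists or both hairpins share a call. Other pathway genes are named at regions of 2 or more S9.6 libraries. Overlaps, regions and pileup recovery were tested on simulated data. Python 3.11.15, pandas 2.3.3, numpy 2.4.6 and scipy 1.17.1 were used.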

Additional observations from a re-analysis of the deposited data

How the results depend on the processing

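Of 60 values of 7 counts under 10 alternatives, 48 stayed within 1.5 times the reported count and 12 did not. At a deposited −log10 q of at least 5, members with an interval numbered 3 in shCtrl, 7 in shUbe2t #1 and 8 in shUbe2t #2. Members at regions of all S9.6 libraries then numbered 3, at regions of both hairpins only 2 (Usp5 and Usp37, the latter through the loss of its shCtrl call) and at control-only regions 0. With 1263 intervals from each S9.6 list there were 16 and 14 members in the hairpin lists, 2 at regions of both hairpins only (Rnf5 and Usp5) and 2 at control-only regions. With 5000 bp beside the gene, 2 members were at control-only regions. Within 1000 bp of a listed start, added after the data were seen, 9 members were left in shUbe2t #2, 0 without antibody and 2 at regions of both hairpins only. Usp34 and Ube2g1 have a listed start and dropped out by distance (144565 and 1091 bp in shUbe2t #2, 144340 bp for Usp34 without antibody), and the other members lost have none listed. The number of members at regions of both hairpins only therefore depends on the threshold. No paired analysis was possible because each condition has 1 library, and no replicate could be left out. Most member summits held 9 to 20 fragments, and whether a weak site is called is limited by that depth.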

Other observations

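Chromosome 11 held the most members with an S9.6 interval, 6 of its 22 (Rnft1, Ube2g1, Usp22, Usp32, Usp34 and Usp36), or 27.3%, while 12.9% of its protein-coding genes held one. By share chromosome 3 was higher, with 2 of 7 members (28.6%), while 7.63% of its protein-coding genes held one. Of the 11 members on chromosome X, 1 held one (Usp9x, 9.09%), while 2.28% of protein-coding genes there did. Chromosomes 12, 15, 16, 18 and Y have 2, 2, 6, 6 and 1 members and none with an S9.6 interval.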
